A study of Mus musculus with 4 samples.

Results

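The nuclear factor I (NFI) family of mouse has 4 members, Nfia, Nfib, Nfic and Nfix, and all 4 were found by symbol among the 32285 genes of the single-cell count matrices. The family was chosen on measured values of these libraries, because Nfia was higher in cardiomyocyte-like cells of both Ho libraries. For that reason the Ho and Wt values of all 4 genes in cells with Tnnt2 are given below as a description, without a test. The tests concern the differences between kinds of cells, between cycling and other cells, and between the genotypes in cells without Tnnt2. Those between kinds of cells include the Tnnt2 cells of Ho, so for Nfia they are not independent of the choice.

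Hearts were dissected at the embryonic stage E10.5 from C57BL/6J embryos that were wild-type (Wt) or homozygous for the Cyp51 I383V substitution made with CRISPR/Cas9 (Ho), and 2 droplet libraries were sequenced per genotype, called Wt1, Wt2, Ho1 and Ho2. CYP51 is a demethylase of cholesterol synthesis, and the question behind the comparison was how its mutation acts on the developing heart. The substitution leaves the transcript in place, so Cyp51 counts do not check the labels. Cyp51 stood at 66.9 and 62.8 counts per 1000000 UMIs (CPM) in Tnnt2 cells of Wt1 and Wt2 and at 60.4 and 70.9 CPM in those of Ho1 and Ho2. The sources name no litter for a library and no number of pooled hearts, so p-values measure the spread between these libraries only.

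The files held 109893733, 117034633, 127018819 and 107377100 unique molecular identifiers (UMIs) for Wt1, Wt2, Ho1 and Ho2. Filters on depth and mitochondrial counts left 9654, 7618, 7420 and 6460 cells with medians of 10852, 14456, 16164 and 16012 UMIs. Ho1 stood apart from the other libraries. It had 31886 UMIs of Xist, the RNA that silences the inactive X chromosome, where the others had 5, 4 and 2, and it had no UMI of the Y-linked genes counted. It also lacked nearly all cells of the Crabp1 and Epcam kinds described below, its Tnnt2 cells carried the most globin RNA, and its Cdh5 and Hapln1 cells carried the most cardiomyocyte RNA, with the values given below. Between 14 and 34 cell barcodes were shared by any pair of libraries.

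NFI proteins bind DNA as dimers through a conserved amino-terminal domain, and each arm of the palindrome they recognise holds the letters TTGGC. They can activate or repress transcription. The family is best known for the differentiation of glia and neurons, where Nfia and Nfib act, for the switch from embryonic to fetal skeletal muscle under Nfix, and for tooth root formation under Nfic. In the embryonic heart their roles are less described.

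In GENCODE M21 on GRCm38, Nfia lies on the plus strand of chromosome 4 (chr4:97772734-98118874), and Nfib lies on the minus strand of the same chromosome (chr4:82290173-82705750). Nfic lies on the minus strand of chromosome 10 (chr10:81396186-81455635) and Nfix on the minus strand of chromosome 8 (chr8:84699876-84800344). All 4 are protein coding genes. Some other genes lie across them on the opposite strand. Among these, the antisense gene Gm16104 across Nfic had 9529 UMIs in the cells kept, and Lyl1 across Nfix, a blood and endothelial transcription factor, had 5972. The reads were counted by Cell Ranger at its default settings, which give a gene only the reads of its own strand.

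The letters TTGGC, or GCCAA for the other strand, were searched in the RefSeq promoters of the family (GRCm38.p6, 300 bases around a start site) because all 4 genes were highest in the same 2 kinds of cells, the Hapln1 and Cdh5 gates described below. The table held 1 promoter of Nfia, 1 of Nfic and 4 of Nfix. Those of Nfia and Nfic and the 1 of Nfix with the most matches are shown 5′ to 3′ on the gene's strand, with the matches in them in capitals.
Nfia, chr4:97581693-97581992, plus strand: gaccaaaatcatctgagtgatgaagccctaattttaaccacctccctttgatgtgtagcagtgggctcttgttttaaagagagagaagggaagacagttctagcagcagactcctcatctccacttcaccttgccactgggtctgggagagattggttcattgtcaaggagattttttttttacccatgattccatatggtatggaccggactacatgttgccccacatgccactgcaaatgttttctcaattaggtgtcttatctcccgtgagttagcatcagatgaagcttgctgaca
Nfic, chr10:81427124-81427423, minus strand: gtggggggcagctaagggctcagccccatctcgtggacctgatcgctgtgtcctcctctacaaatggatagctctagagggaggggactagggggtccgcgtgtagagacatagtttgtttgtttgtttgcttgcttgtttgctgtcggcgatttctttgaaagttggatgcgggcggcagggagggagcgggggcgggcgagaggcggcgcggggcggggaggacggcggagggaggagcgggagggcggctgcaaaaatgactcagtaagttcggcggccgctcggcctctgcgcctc
Nfix, chr8:84772826-84773125, minus strand: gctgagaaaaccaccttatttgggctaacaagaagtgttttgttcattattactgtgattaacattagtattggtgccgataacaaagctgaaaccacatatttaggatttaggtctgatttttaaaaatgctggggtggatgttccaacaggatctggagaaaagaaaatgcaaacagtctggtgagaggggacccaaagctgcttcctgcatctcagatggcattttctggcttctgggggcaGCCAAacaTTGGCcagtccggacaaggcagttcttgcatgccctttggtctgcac

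This Nfix promoter lies inside the gene and held 2 matches, 1 on each strand. Of the other 3 Nfix promoters, not shown, 2 held 1 match each, and those of Nfia and Nfic held none. At least 1 match was found in 46.7% of all 32851 promoters of this length, so the letters are common. The whole palindrome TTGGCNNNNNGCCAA was found in 0.0365% of them and in none of the family's. The Nfia promoter of this table lies upstream of the gene as GENCODE M21 draws it.

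Cells were sorted into kinds, or gates, by the UMIs of single marker genes. Cells with Tnnt2, the cardiac troponin T gene, were taken as cardiomyocyte-like and divided into those with Myl2 (a ventricular myosin light chain), Stard10 (an atrial marker) or Shox2 (a sinus venosus factor) and those with none of these, called Tnnt2 alone. The other gates were Cdh5 (VE-cadherin of endothelium and endocardium), Hapln1 (a matrix link protein of the endocardial cushions), Crabp1 (a retinoic acid binding protein of outflow and pharyngeal mesenchyme), Upk3b (a uroplakin of the epicardium) and Epcam (an epithelial adhesion molecule). Barcodes that met gates of 2 lineages were left out, between 3.33% and 5.71% of the cells of a library. The Tnnt2 gate held 1715, 2597, 3384 and 2392 cells in Wt1, Wt2, Ho1 and Ho2, and the Cdh5 gate held 1071, 1593, 1684 and 944. The Hapln1 gate held 830, 957, 1131 and 658 cells and the Upk3b gate 130, 199, 136 and 214. The Crabp1 gate held 2309, 460, 41 and 367 cells and the Epcam gate 486, 188, 1 and 267, so the sums of Ho1 in these 2 gates, each under 50 cells, were left out of every test.

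The gates were checked against other markers of each cell type. The 9 cardiomyocyte genes of the list summed to 53419 to 55173 CPM in the Tnnt2 gate, led by Myl7. The 7 ventricular genes summed to 12939 to 15710 CPM in the Myl2 subset. In the Stard10 subset they reached 4996 to 6343 CPM, above the 5 atrial genes at 528 to 628 CPM. In the Shox2 subset they reached 1734.5 to 2531.8 CPM, above the 5 sinus venosus genes at 1103 to 1318 CPM. The subsets are therefore called by their gene. The 6 epithelial genes summed to 1430, 1491 and 1889.5 CPM in the Epcam gate of Wt1, Wt2 and Ho2. The 10 endothelial genes summed to 1803 to 2096 CPM in the Cdh5 gate. The 7 cushion mesenchyme genes summed to 1904 to 2178 CPM in the Hapln1 gate, but the endothelial genes also reached 588 to 790.0 CPM, so this gate held endothelial RNA as well. The 6 epicardial genes summed to 1387 to 1596 CPM in the Upk3b gate, where the 9 cardiomyocyte genes stood higher, at 3337, 2748, 5158 and 3608 CPM in Wt1, Wt2, Ho1 and Ho2, so this gate held cardiomyocyte RNA as well, whose part in the values of this gate was not tested. The 8 genes of pharyngeal and neural crest mesenchyme reached only 146 to 237 CPM in the Crabp1 gate, above their 6.96 to 12.7 CPM in the Tnnt2 gate but far below the cushion mesenchyme genes in the same Crabp1 cells, at 568 to 1610 CPM, and the gate is called by its gene here.

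Nfia was highest in the Hapln1 gate and lowest in the Epcam gate and the Stard10 subset of cardiomyocyte-like cells, which could not be ordered. It stood at 76.9, 85.0, 101 and 84.9 CPM in Hapln1 cells of Wt1, Wt2, Ho1 and Ho2, a mean of 87.0 ± 10.2 CPM (SD, n = 4) from 4521 UMIs. In the Cdh5 gate it stood at 55.5, 67.3, 78.0 and 60.4 CPM, and in the Upk3b gate at 40.7, 59.1, 56.9 and 50.8 CPM. These 3 gates followed in the same order in each of the 4 libraries, although the ranges of neighbours overlapped. All 4 values of the Upk3b gate were above those of the next gate, the Shox2 subset, at 14.9, 23.4, 29.7 and 34.3 CPM. Below these came Tnnt2 alone with 15.2 ± 5.34 CPM (SD, n = 4), the Crabp1 gate with 12.3 ± 6.59 CPM (SD, n = 3), the Myl2 subset with 8.97 ± 2.34 CPM (SD, n = 4) and the Epcam gate with 4.37 ± 2.31 CPM (SD, n = 3), and each of these overlapped its neighbours. The Stard10 subset stood at 3.81, 4.27, 4.78 and 3.93 CPM, and the Epcam gate was above it in 1 of the 3 libraries with both. The mean of the Hapln1 gate was 20.7 times that of the Stard10 subset, with 19.9 to 21.6 times within single libraries.

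Nfib was spread more evenly. It stood at 122, 130, 129 and 131 CPM in the Hapln1 gate and at 115, 115, 124 and 115 CPM in the Cdh5 gate of Wt1, Wt2, Ho1 and Ho2. The Upk3b gate followed with 84.7 ± 11.2 CPM, below every library of the Cdh5 gate. In cardiomyocyte-like cells Nfib stood at 52.8 ± 7.12 CPM in Tnnt2 alone, 40.3 ± 2.70 in the Myl2 subset, 39.8 ± 3.24 in the Shox2 subset and 29.6 ± 3.34 in the Stard10 subset (SD, n = 4 each). The Myl2 and Shox2 subsets could not be ordered, while all 4 values of the Shox2 subset were above those of the Stard10 subset. The mean of the Hapln1 gate was 4.32 times that of the Stard10 subset. The Epcam gate was at 28.9 ± 15.8 CPM and the Crabp1 gate at 51.6 ± 21.8 CPM (SD, n = 3), with Wt2 the highest in each.

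Nfic was as high in the Cdh5 gate as in the Hapln1 gate, and these 2 could not be ordered. It stood at 46.6, 47.7, 33.8 and 46.8 CPM in the Cdh5 gate of Wt1, Wt2, Ho1 and Ho2 and at 46.6, 45.9, 38.4 and 42.2 CPM in the Hapln1 gate, with Ho1 the lowest of both. The Crabp1 gate came next with 28.4 ± 5.99 CPM (SD, n = 3), below every library of the Hapln1 gate. By its means Nfic was thus placed otherwise than Nfia, for which the Upk3b gate ranked above the Crabp1 gate. For Nfic these 2 gates overlapped, and in Wt1 the Crabp1 gate, at 22.99 CPM, was just below the Upk3b gate, at 23.08 CPM. In the Upk3b gate Nfic stood at 23.1, 23.3, 15.01 and 16.7 CPM. It was at 17.5 ± 2.43 CPM in the Shox2 subset, and all 4 of these values were above those of the Stard10 subset at 9.34 ± 2.40 and the Myl2 subset at 9.21 ± 1.40 CPM (SD, n = 4 each).

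Nfix was highest in the Hapln1 gate, at 15.6, 16.5, 13.8 and 12.5 CPM in Wt1, Wt2, Ho1 and Ho2. The Cdh5 gate, at 4.28, 5.38, 3.34 and 4.27 CPM, was lower in every library and did not overlap it, and the ratio of the means was 3.38. The Upk3b gate followed with 3.21 ± 0.751 CPM (SD, n = 4) from 48 UMIs in all. In each of the other 6 gates the mean was under 1 CPM, from 3 to 46 UMIs over all libraries, and their order could not be read. Levels of different NFI genes are not compared here, since counts of 3′ ends depend on each transcript.

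**Figure D1:**
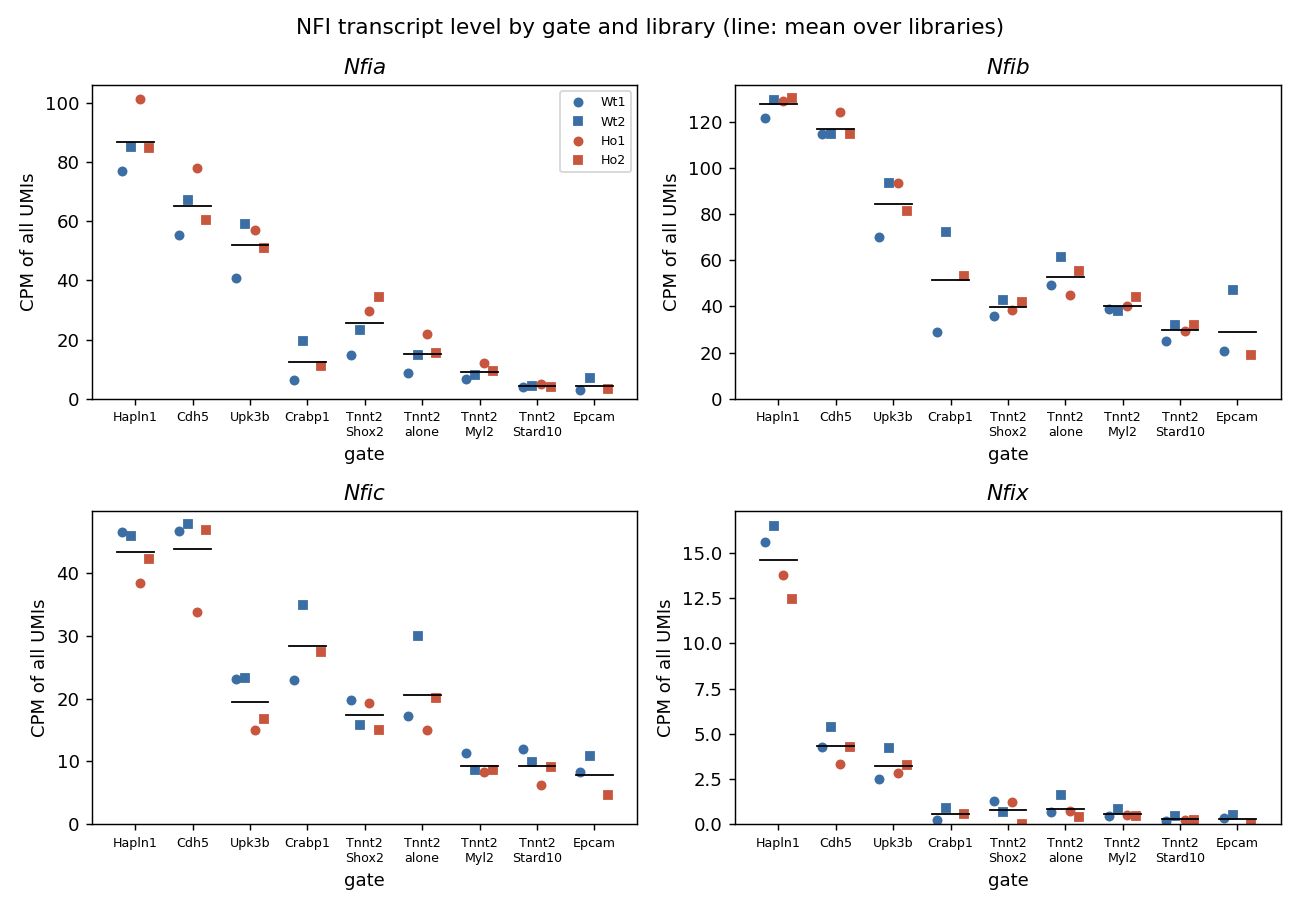
Level of each NFI gene in 9 gates, in CPM of all UMIs in the sum (y axis, linear from 0), with 1 point per library (blue Wt, red Ho, circle replicate 1, square replicate 2) and a line at the mean. All 4 genes are highest in the Hapln1 and Cdh5 gates, Nfix is highest in the Hapln1 gate at 12.5 to 16.5 CPM, and Nfia in the Stard10 subset stays at 3.81 to 4.78 CPM. The sums of Ho1 in the Crabp1 and Epcam gates are left out.

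The gates were compared in 1 fit of edgeR's quasi-likelihood test over 34 sums of a library and a gate, with the library as a block and Benjamini-Hochberg adjustment over 13965 genes. A gene was called where its adjusted p was under 0.05, and each log2 fold change is a gate against the mean of the other gates. So many genes differed between gates that a call alone says little. In the Hapln1 gate 62% of all genes were called, and 9.68% were called with at least 2-fold higher levels. All 4 NFI genes were among the latter. Nfix rose most, by 4.09 (SE 0.151, adjusted p = 3.44e-20), and Nfia rose by 2.47 (SE 0.0903, adjusted p = 3.12e-20). Nfic rose by 1.34 and Nfib by 1.32, with adjusted p of 2.54e-14 and 1.43e-14.

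In the Cdh5 gate, where 70% of genes were called and 10.7% were called at least 2-fold higher, the 4 genes again fell in the latter class. The log2 fold changes were 2.19 for Nfix, 2.08 for Nfia, 1.43 for Nfic and 1.26 for Nfib, with adjusted p from 5.96e-19 to 2.03e-12 by edgeR. The Upk3b gate separated the family. There 53.4% of genes were called and 7.88% were called at least 2-fold higher, and Nfix (1.75) and Nfia (1.70) were in the latter class, Nfib was called at 0.72 (SE 0.105, adjusted p = 8.17e-07), and Nfic was not called, at 0.11 (SE 0.131, adjusted p = 0.515).

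Among cardiomyocyte-like cells, the Stard10 subset had all 4 genes lower, against 60% of genes called in either direction. Nfia fell by 2.21 on the log2 scale (SE 0.171, edgeR adjusted p = 1.58e-12), Nfix by 1.87, Nfic by 0.93 and Nfib by 0.79. In the Myl2 subset, with 64.8% called, all 4 genes were lower as well, Nfia by 0.90, Nfic by 0.86, Nfix by 0.81 and Nfib by 0.23. The call of Nfib in the Myl2 subset was lost without Wt2, Ho1 or Ho2, at -0.12, -0.23 and -0.27 (adjusted p = 0.197, 0.0964 and 0.0562). That of Nfix was lost without Wt1, Wt2 or Ho1, at -0.77, -0.82 and -0.76 (adjusted p = 0.0977, 0.0772 and 0.0701). The Shox2 subset, with 54.3% called, went the other way for Nfia only, which was higher by 0.59 (SE 0.127, edgeR adjusted p = 0.000221), while Nfib was lower by 0.49 and Nfic and Nfix were not called. Without Ho2 this Nfia value was 0.35 and no longer called (adjusted p = 0.082). The fit includes the Ho sums of this subset, whose Nfia values helped choose the family. The call is thus not independent of that choice. In Tnnt2 alone, with 51.2% called, none of the 4 genes was called.

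The 4 Tnnt2 subsets were also set together against the 5 other gates, a contrast added after the values of single gates were seen. It called 77.7% of genes, and all 4 NFI genes were lower in cardiomyocyte-like cells, Nfix by 1.55, Nfia by 1.12, Nfic by 0.65 and Nfib by 0.63 on the log2 scale (edgeR adjusted p from 5.22e-10 to 0.000159). In the Epcam gate 56.3% of genes were called and 9.17% were called at least 2-fold lower, and all 4 NFI genes were in the latter class, from Nfia at -2.61 to Nfib at -1.41. In the Crabp1 gate, with 57% called, Nfic was higher by 0.47 (SE 0.114, adjusted p = 0.000727) while Nfix, Nfia and Nfib were lower, at -1.68, -0.85 and -0.32. Without Wt1, which holds most cells of this gate, Nfib came to -0.05 (adjusted p = 0.769) and Nfix to -0.92 (adjusted p = 0.222).

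Free RNA can put a UMI into a cell that does not express a gene, so shares of cells were set beside those of the Epcam gate, among the lowest levels of Nfia. After thinning each cell to 2000 UMIs, Nfia was found in 14.2%, 16.1%, 17.6% and 15.7% of Hapln1 cells of Wt1, Wt2, Ho1 and Ho2. In the Epcam gate it was found in 0 of 468 thinned cells of Wt1, which at 2000 UMIs a cell allows up to 0.785% of cells with a UMI (exact 95% interval) and sets no limit on cells with the RNA, in 1.10% of cells of Wt2 and in 0.763% of those of Ho2. In the Tnnt2 gate the shares were 1.73%, 2.24%, 3.15% and 3.10%, with exact 95% intervals of 1.13 to 2.55%, 1.67 to 2.93%, 2.57 to 3.83% and 2.42 to 3.91%. These intervals cover counting error only. Thinning left out 273, 317, 244 and 166 Tnnt2 cells with fewer UMIs. Without thinning the Tnnt2 shares were 8.28%, 12.3%, 17.6% and 18.1%, at median depths of 12316 to 18323 UMIs. The unthinned Epcam shares of Wt1, Wt2 and Ho2 were 3.29%, 6.38% and 3.37%, at 8759 to 14209 UMIs. The unthinned Hapln1 shares of Wt1, Wt2, Ho1 and Ho2 were 55.5%, 59.0%, 66.0% and 61.2%, at 12368.5 to 15041 UMIs. Nfix was found in 2.70%, 3.21%, 3.07% and 1.71% of thinned Hapln1 cells and in at most 0.307% of thinned Tnnt2 cells of any library, and in no thinned Epcam cell, so that the Tnnt2 share could not be told from background.

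Within cardiomyocyte-like cells, Nfia was the member whose level chose the family. In all Tnnt2 cells it stood at 7.80 CPM in Wt1 and 9.40 in Wt2, and at 13.1 CPM in Ho1 and 14.0 in Ho2. Both Ho libraries were above both Wt libraries, and the mean of Ho was 1.58 times that of Wt. In the Myl2 subset the values were 6.47, 8.04, 12.01 and 9.36 CPM, and in Tnnt2 alone they were 8.78, 14.8, 21.8 and 15.6 CPM, and in each the Ho values were the 2 highest. In the Shox2 subset, at 14.9, 23.4, 29.7 and 34.3 CPM, the mean of Ho was 1.67 times that of Wt. Of the 4 subsets the Stard10 subset was the exception, since its Ho values of 4.78 and 3.93 CPM overlapped its Wt values of 3.81 and 4.27. Cells with Myl2 and also Shox2 or Stard10 entered only the whole Tnnt2 gate. Their Nfia values overlapped too, at 9.77, 9.60, 11.7 and 7.82 CPM in Wt1, Wt2, Ho1 and Ho2. With the 4 subsets at equal weight Nfia stood at 8.48, 12.6, 17.1 and 15.8 CPM in Wt1, Wt2, Ho1 and Ho2.

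The other 3 genes had smaller or less even differences in these cells. Nfib stood at 36.0, 39.2, 38.7 and 42.5 CPM in all Tnnt2 cells of Wt1, Wt2, Ho1 and Ho2, and the genotypes overlapped. After the TMM scaling used in the fits these Nfib values were 36.1, 39.2, 40.2 and 40.8 CPM, with both Ho libraries higher. In the Myl2 subset, at 38.8, 38.1, 40.3 and 44.2 CPM, the 2 highest Nfib values were those of Ho, and in the other 3 subsets the genotypes overlapped. Nfic stood at 13.8, 12.01, 9.76 and 11.9 CPM, where the 2 lowest values were those of Ho, though Ho2 and Wt2 lay close together. In the Stard10 subset Nfic was at 12.01, 9.95, 6.21 and 9.18 CPM, with Ho again below Wt, and in the Myl2 subset, the Shox2 subset and Tnnt2 alone the genotypes overlapped. Nfix stood at 0.557, 0.808, 0.551 and 0.303 CPM, a level at which single UMIs count. In the fit of all Tnnt2 cells 0% of 14736 genes were called by edgeR between Ho and Wt, with 901 at an unadjusted p under 0.05, and DESeq2 called 19. That fit used the contrast that chose the family, so no test of the 4 genes is given from it.

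**Figure D2:**
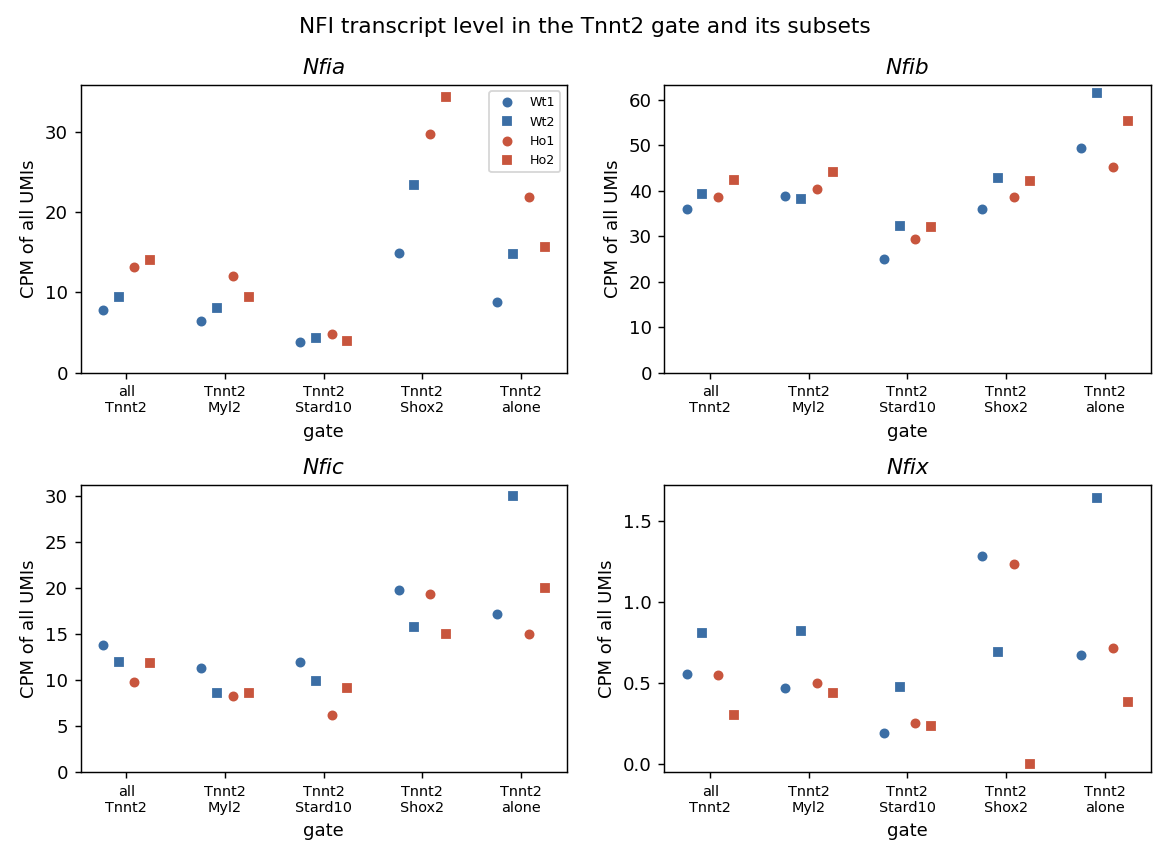
Level of each NFI gene in all Tnnt2 cells and in 4 subsets, in CPM of all UMIs (y axis, linear), with 1 point per library (blue Wt, red Ho, circle replicate 1, square replicate 2). Nfia is at 13.1 and 14.0 CPM in Ho against 7.80 and 9.40 CPM in Wt over all Tnnt2 cells, and the genotypes overlap in the Stard10 subset. The points are a description of the values that chose the family.

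Nfia was much higher in endothelial, cushion and epicardial cells than in cardiomyocyte-like cells, so RNA of those cells was measured in the same Tnnt2 sums. All 10 endothelial genes had UMIs in each library, and they summed to 68.7, 66.2, 77.0 and 62.3 CPM in Wt1, Wt2, Ho1 and Ho2, led by Egfl7 at 33.5 to 36.1 CPM. The 7 cushion mesenchyme genes summed to 433, 395, 425 and 446 CPM, led by Vcan, and the 6 epicardial genes to 53.7, 54.8, 47.1 and 66.5 CPM, led by Krt19. In each of these 3 lists the genotypes overlapped over all Tnnt2 cells. Within subsets the epicardial genes were higher in both Ho libraries in the Shox2 subset, at 82.5, 84.7, 85.4 and 120.3 CPM, led by Tcf21 at 57.4, 61.1, 67.9 and 89.5 CPM, and in the Stard10 subset, at 31.5, 33.6, 34.0 and 40.1 CPM. The cushion mesenchyme genes were lower in both Ho libraries in Tnnt2 alone, at 584, 644, 530 and 558 CPM. In the Shox2 subset, at 430.35, 452.91, 426.79 and 430.19 CPM, the 2 lowest values were those of Ho, though Ho2 and Wt1 lay close together. Cdh5 itself stood at 1.53, 1.71, 3.69 and 0.745 CPM and Hapln1 at 5.34, 5.40, 9.58 and 3.03 CPM in Tnnt2 cells, with Ho1 the highest and Ho2 the lowest for both genes. Globin genes summed to 4.04, 9.05, 242 and 23.7 CPM, highest in Ho, with all 7 genes present in each library and Hba-x leading in Ho1. The median depth of Tnnt2 cells was 12316, 17345, 17805 and 18323 UMIs. Their median mitochondrial percentage was 1.36, 1.46, 1.57 and 2.11, and both were likewise highest in the Ho libraries. In Tnnt2 alone the median depth was 4854, 6407, 11003 and 10586.5 UMIs, and in the other 3 subsets the genotypes overlapped in depth. The cardiomyocyte genes were also higher in both Ho libraries in Tnnt2 alone, at 49770, 48191, 58015 and 53609 CPM. The sinus venosus genes summed to 333, 217, 182 and 352 CPM in all Tnnt2 cells. The genotypes overlapped there and in the Shox2 subset. They were lower in both Ho libraries in the Myl2 subset, at 38.5, 41.7, 30.7 and 35.1 CPM. The same held in the Stard10 subset, at 215, 174, 163 and 172 CPM, and in Tnnt2 alone, at 282, 294, 202 and 272 CPM. The 6 genes of dissociation stress, such as Jun and Fos, summed to 657, 635, 743 and 877 CPM in the Myl2 subset, where both Ho libraries were above both Wt libraries as for Nfia, and overlapped between the genotypes in all Tnnt2 cells and in the other 3 subsets. The 5 atrial genes were higher in both Ho libraries in the Myl2 subset, at 40.0, 43.0, 57.0 and 51.7 CPM. In Tnnt2 alone they were higher too, at 160, 131, 168 and 187 CPM. Both Ho libraries were lower in the Shox2 subset, at 517, 555, 464 and 465 CPM. Ventricular genes were lower there as well, at 2487.5, 2531.8, 2194.8 and 1734.5 CPM, as were cardiomyocyte genes, at 52384, 54857, 49339 and 48403 CPM. The part of RNA from other cells, globin RNA, stress genes, these marker lists, depth and mitochondrial percentage in the Nfia values was not tested.

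Outside the Tnnt2 gate the genotypes were compared by edgeR in 3 gates, with 2 Ho against 2 Wt sums each. Few genes of any kind were called. In the Cdh5 gate 0% of 13481 genes were called, with 770 at an unadjusted p under 0.05, and DESeq2 called 28. In the Hapln1 gate 0.0157% of 12753 genes were called, and in the Upk3b gate 0.0567% of 10585. None of the 4 NFI genes was called in any of these gates.

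For Nfia the log2 fold change of Ho over Wt was 0.22 in the Cdh5 gate (SE 0.142, edgeR adjusted p = 0.881), 0.22 in the Hapln1 gate (SE 0.0983, adjusted p = 0.833) and 0.12 in the Upk3b gate (SE 0.169, adjusted p = 0.999). The CPM values of Ho and Wt given above overlapped in all 3 gates, in the Hapln1 gate only through Wt2 at 85.0 and Ho2 at 84.9 CPM. After the TMM scaling used in the fits, Wt2 was at 83.3 and Ho2 at 84.7 CPM there, without overlap of the genotypes. Nfic was at -0.20 in the Cdh5 gate, -0.19 in the Hapln1 gate and -0.50 in the Upk3b gate (SE 0.194, adjusted p = 0.999). Its 2 lowest values were those of Ho in the Hapln1 and Upk3b gates. Nfix was at -0.34, -0.27 and -0.18 in the Cdh5, Hapln1 and Upk3b gates. In the Cdh5 and Hapln1 gates its Ho values were both below its Wt values. In the Cdh5 gate, though, Ho2 at 4.272 CPM and Wt1 at 4.277 CPM lay close together. Nfib was within 0.12 of 0 in all 3 gates.

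These values leaned on single libraries. With Ho2 left out, so that Ho1 alone stood for Ho and was assumed to vary like Wt, edgeR called Nfia in the Hapln1 gate at 0.35 (adjusted p = 0.00827) and in the Cdh5 gate at 0.40 (adjusted p = 0.0432), and it called Nfic in the Cdh5 gate at -0.42 (adjusted p = 0.0211). In that setting calls were more common among all genes too, at 2.13% of 13359 in the Hapln1 gate and 1.89% of 14349 in the Cdh5 gate. With Ho1 left out, Nfia in the Cdh5 gate came to -0.015 and Nfic to -0.0011. The 9 cardiomyocyte genes moved with the same library, at 528, 597, 1283 and 586 CPM in the Cdh5 gate of Wt1, Wt2, Ho1 and Ho2 and at 727, 1057, 1476 and 823 CPM in the Hapln1 gate, and their part in the NFI values was not tested.

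**Figure D3:**
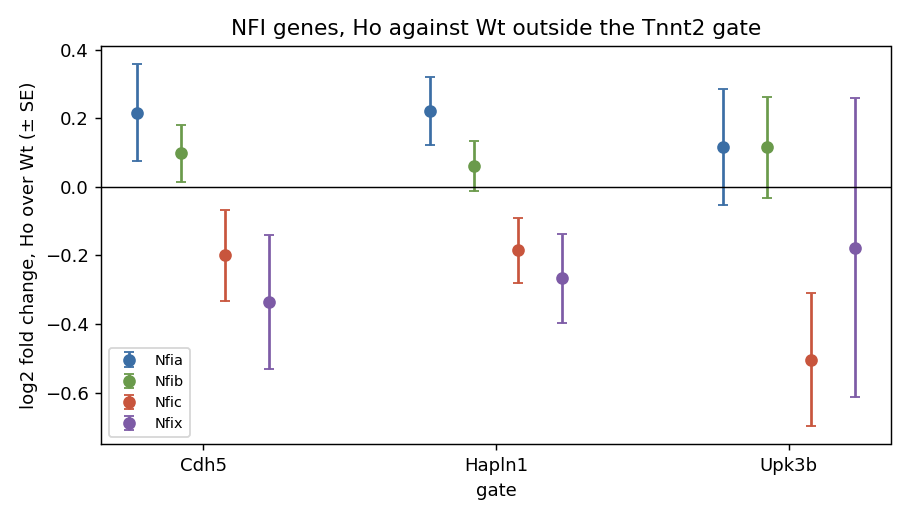
Log2 fold change of Ho over Wt (y axis) for the 4 NFI genes in the Cdh5, Hapln1 and Upk3b gates, as points with bars of 1 SE from edgeR fits of 2 against 2 libraries. Nfia and Nfib lie above 0 and Nfic and Nfix below it in each gate, from 0.22 for Nfia to -0.50 for Nfic in the Upk3b gate, and none was called.

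NFI factors are known for the passage of cells from division to differentiation, and the 4 genes were therefore compared between cycling and other cells. A cell was taken as cycling where it had at least 2 UMIs of 12 mitotic genes after thinning to 2000 UMIs. In Tnnt2 cells Nfic stood at 11.7, 9.20, 8.21 and 9.68 CPM in cycling cells of Wt1, Wt2, Ho1 and Ho2 and at 16.0, 15.1, 11.6 and 14.1 CPM in the other cells. It was lower in the cycling cells of all 4 libraries, by 0.46 on the log2 scale (SE 0.0697, edgeR adjusted p = 6.87e-06). Nfia was lower in cycling cells of all 4 libraries too, by 0.41 (SE 0.0852, adjusted p = 0.00032), from 9.08 ± 2.21 CPM in cycling to 13.1 ± 4.03 CPM in other cells (SD, n = 4). In this gate 50.8% of 13991 genes were called, so a call by itself was common. Nfib and Nfix were not called, at 0.03 and -0.37. The sign for Nfib depended on the scaling, since in CPM of all UMIs its mean was 37.9 in cycling against 40.2 in other cells, lower in 3 of 4 libraries.

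In the Cdh5 gate, where 29% of 12697 genes were called, Nfix was lower in cycling cells of all 4 libraries, at 3.15 ± 0.656 CPM against 5.94 ± 1.39 CPM (SD, n = 4), a log2 fold change of -0.91 (SE 0.152, edgeR adjusted p = 0.000281). Nfic was lower by 0.53 (SE 0.0605, adjusted p = 5.54e-06), again in all 4 libraries. Nfia, lower in CPM in the cycling cells of all 4 libraries, and Nfib were at -0.09 and 0.08 and were not called. In the Hapln1 gate, with 22.5% of 11925 genes called, none of the 4 was called, and the nearest was Nfic at -0.18 (SE 0.0672, adjusted p = 0.0572). In CPM both Nfic and Nfix were lower in the cycling cells of all 4 libraries of this gate. In the Crabp1 gate, with 14.4% of 10764 genes called and Ho1 left out, Nfia was lower by 0.80 (SE 0.172, adjusted p = 0.00577) and Nfib by 0.57 (SE 0.0921, adjusted p = 0.000632), in all 3 libraries each. Without Ho2 the Nfia value was -0.72 and no longer called (adjusted p = 0.088), and DESeq2 did not call it either (adjusted p = 0.2). The differences between gates in these effects were not tested. Cycling cells were deeper than the others, for example 22360 against 16993 UMIs at the median in Tnnt2 cells of Wt2.

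**Figure D4:**
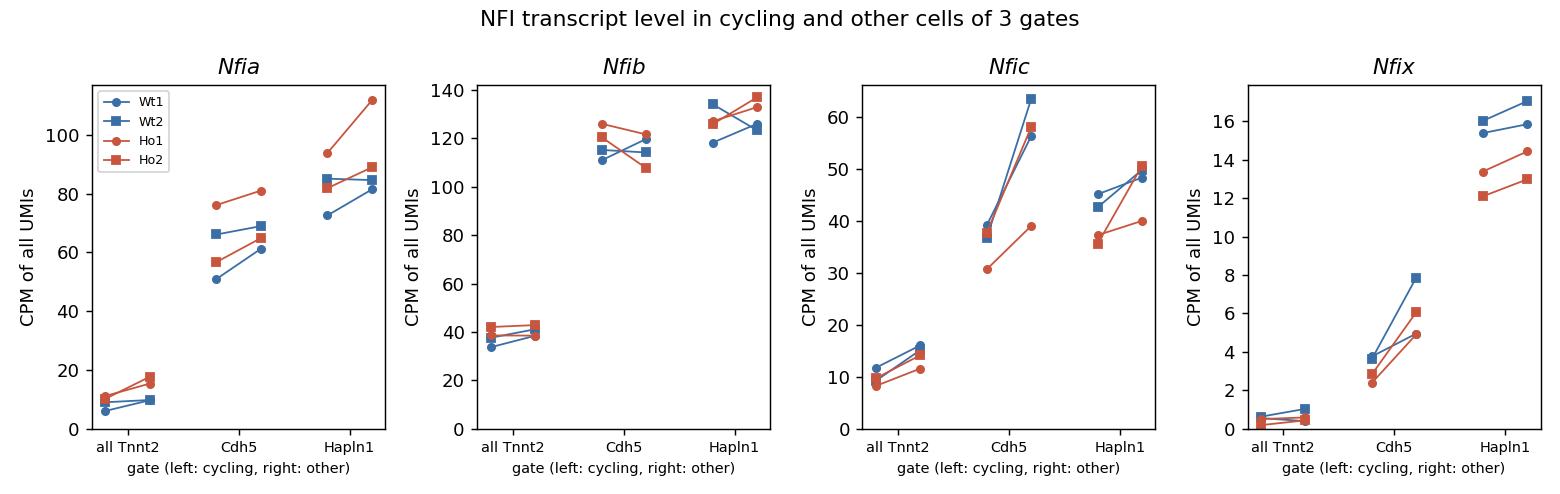
Level of each NFI gene in cycling (left end of each line) and other cells (right end) of the Tnnt2, Cdh5 and Hapln1 gates, in CPM of all UMIs (y axis, linear from 0), with 1 line per library (blue Wt, red Ho, circle replicate 1, square replicate 2). Nfic rises from left to right in all 4 libraries of each gate, Nfix in all 4 libraries of the Cdh5 and Hapln1 gates and Nfia in all 4 libraries of the Tnnt2 and Cdh5 gates.

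Nppa, the atrial natriuretic peptide gene, marks the trabecular layer of the ventricle at this stage. Myl2 cells with Nppa were compared with those without it, a split in which 29.6% of 12683 genes were called. None of the 4 NFI genes was. Nfia stood at 6.46, 8.82, 11.1 and 8.46 CPM in cells with Nppa of Wt1, Wt2, Ho1 and Ho2 and at 6.48, 7.33, 12.8 and 9.89 CPM in those without, a log2 fold change of -0.02 (SE 0.114, edgeR adjusted p = 0.917). Nfib was at -0.12 (SE 0.0602, adjusted p = 0.139), Nfic at -0.04 and Nfix at -0.48 with an SE of 0.482.

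The 4 genes varied alike over gates. Over the 34 sums, Pearson's r of log2(CPM + 1) was 0.92 between Nfia and Nfib, 0.88 between Nfib and Nfix, 0.85 between Nfia and Nfix, 0.85 between Nfib and Nfic, 0.80 between Nfia and Nfic and 0.78 between Nfic and Nfix. The sums of a gate share a cell type and those of a library share its source, so these are descriptions. Among 9670 genes with at least 10 CPM in some gate, the 5 most like Nfia were Spats2l, the chloride channel gene Clic1, the interferon receptor gene Ifnar2, Ppfibp1 and Nfib itself, with r from 0.92 to 0.94. Those most like Nfib were Vim, which encodes the intermediate filament vimentin, Vat1, Ecm1, the collagen chaperone gene Fkbp10 and Tmem64, with r from 0.94 to 0.95. Vim stood at a mean of 4517 CPM in the Cdh5 gate, 3907 in the Hapln1 gate and 391 in the Myl2 subset.

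The genes most like Nfic were Il11ra1, which encodes an interleukin receptor chain, Uba7, Cnrip1, the fibrillar collagen gene Col3a1 and the cell death gene Bad, with r from 0.92 to 0.94. Col3a1 stood at means of 333, 336 and 308 CPM in the Cdh5, Hapln1 and Crabp1 gates and at 14.1 CPM in the Myl2 subset, so it followed Nfic in being high in the Crabp1 gate. The genes most like Nfix were Hapln1, Agfg1, Bnip2, the metalloproteinase gene Pappa and the annexin gene Anxa5, with r from 0.90 to 0.94. Hapln1 chose the cells of 1 gate, and its place in this order follows in part from that. Pappa stood at a mean of 12.9 CPM in the Hapln1 gate, 8.66 in the Cdh5 gate and 6.93 in the Upk3b gate and was under 1 CPM in all the others.

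Genes tied to NFI factors in other tissues were followed over the same gates. Of 10 genes tied to them in the nervous system, 7 could be tested between gates. In the Hapln1 gate 6 of these 7 were higher and 1 was lower, where 62% of all genes were called, and their median log2 fold change was 1.01 where that of all genes tested was 0.03. Sox9, a factor of glia that also stands in the cushion mesenchyme list, rose by 3.29 (SE 0.117, edgeR adjusted p = 1.59e-20), and Fabp7, a fatty acid binding protein of radial glia, rose by 2.52. Apcdd1, a Wnt inhibitor, rose by 2.35 and the Notch target Hes1 by 1.01, whereas Bbx fell by 0.61. In the Upk3b gate, with 53.4% of all genes called, all 7 were higher, with a median of 1.23 against -0.04 over all genes, led by Fabp7 at 4.05. Of the 7, 3 were higher and 1 lower in the Cdh5 gate, where 70% of all genes were called and all 4 NFI genes were higher, and the median of the 7 was 0.32. In the Crabp1 gate, where 57% were called and Nfia, Nfib and Nfix were lower, 5 were higher and 1 lower, with a median of 0.90. In the Epcam gate, with 56.3% called and all 4 NFI genes lower, 2 were higher and 2 lower. In the 4 Tnnt2 subsets together, where 77.7% of all genes were called, 5 were lower and 2 higher, with a median of -1.31 against -0.06 over all genes, and the 2 higher were the glutamate transporter gene Slc1a3 at 0.34 and Bbx at 0.12.

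Of 9 genes tied to Nfix in skeletal muscle, 8 could be tested. In the 4 Tnnt2 subsets together 5 were higher and 2 lower, a number called that is near the 77.7% of all genes, with a median of 1.13 against -0.06 over all genes. The higher ones were the muscle enzymes Ckm (5.05) and Eno3 (3.45), the slow myosin heavy chain Myh7 (4.73), which also stands in the cardiomyocyte list, Junb (1.18) and Mef2a (0.90), and the lower ones were Nfatc4 (-0.82) and Sox6 (-0.77), a repressor of slow muscle genes. In the Hapln1 gate, where Nfix was highest, 4 of the 8 were higher, Sox6 among them by 2.13, and 3 were lower, with a median of 0.20. Of the same 8 genes, 2 were higher and 4 lower in the Cdh5 gate, with a median of -1.28. That median rests in part on Mstn, at -1.758 with an SE of 1057, a fold change that could not be measured. In the Upk3b gate 1 was higher and 6 lower, with a median of -1.12. The shares of all genes called in these 3 gates are given above. In cycling Tnnt2 cells 6 of these 8 were lower and none was higher, where 50.8% of all genes were called. Of all 13991 genes tested there, 3514 were lower. The median of the 8 was -0.41 against -0.02 over all genes, with Junb lower by 0.73 and Nfatc4 by 0.70. In cycling Cdh5 cells, with 29% called, 1 of 6 tested was higher and 3 were lower, with a median of -0.30. In cycling Hapln1 cells, with 22.5% called, 2 of 7 were lower, with a median of -0.098. In cycling Crabp1 cells, with 14.4% called, 4 of 6 were lower, with a median of -0.37.

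Of 5 genes tied to Nfic in the tooth root and the cell cycle, 3 could be tested, Cdkn1a, Ccnd1 and Klf4. In the Tnnt2 subsets together, with 77.7% of all genes called, 2 were higher and 1 lower. Of the same 3 genes, 2 were higher and 0 lower in the Hapln1 gate, with 62% of all genes called and a median of 1.06. The Cdh5 gate, with 70% called, likewise had 2 higher and 0 lower, with a median of 0.55. In the Crabp1 gate, with 57% called and Nfic higher, 1 was higher and 2 lower, with a median of -1.85. In the Epcam gate, with 56.3% called, 1 was higher and 1 lower. The cyclin inhibitor Cdkn1a was higher in the Tnnt2 subsets together, by 1.47, and fell by 2.09 in the Upk3b gate, while the cyclin Ccnd1 was lower in the Tnnt2 subsets together, by 1.95, and higher in the Upk3b gate, by 2.29. Klf4, a factor of the Krüppel-like family, was higher in the Tnnt2 subsets together, by 0.50, and was not called in the Upk3b gate, at -0.09. Cdkn1a was lower in cycling cells, by 0.64 in the Tnnt2 gate and 0.68 in the Cdh5 gate, and so was Ccnd1, by 0.24 and 0.26. Klf4 was at 0.02 and not called in cycling Tnnt2 cells, and fell by 0.29 in cycling Cdh5 cells (edgeR adjusted p = 0.0433). Of all genes 50.8% were called in cycling Tnnt2 cells and 29% in cycling Cdh5 cells. Between Ho and Wt no gene of the 3 lists was called by edgeR in the Cdh5, Hapln1 or Upk3b gate. The smallest adjusted p among them were 0.306 for Klf4 in the Cdh5 gate, at 0.64 (SE 0.101), and 0.319 for Cdkn1a in the Hapln1 gate, at -0.65 (SE 0.151).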

How the data were processed

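The authors aligned the reads of 2 Wt and 2 Ho libraries to the mouse genome mm10 (GRCm38) with Cell Ranger 6.1.1 and deposited raw UMI counts per gene and barcode, before their filters on cells, and per the labels they used Seurat 4.1.0 downstream. Here barcodes were kept with 500 to 50000 UMIs, 500 to 6000 genes and at most 20% mitochondrial counts, the limits of the study. Doublets were treated only by leaving out barcodes that met gates of 2 lineages, in place of the doublet caller of the study.

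A cell entered a gate with at least 2 UMIs of its gene and at least 8 per 10000 UMIs (Tnnt2, Myl2), 2 (Hapln1, Crabp1), 4 (Nppa) or 1 (the others). Limits were set on the gate genes. Cdh5 and Upk3b took precedence over Hapln1, Epcam over Crabp1 and Shox2 over Stard10. Cells with Myl2 and Shox2 or Stard10 entered only the whole Tnnt2 gate. UMI counts were summed per library and gate, and sums from under 50 cells (20 for splits) were not tested. edgeR 4.0.16 in R 4.3.3 gave the quasi-likelihood test after TMM scaling and filterByExpr, with p-values adjusted by Benjamini-Hochberg at 0.05 over every gene tested, and was tested on simulated data. Fits of gates and splits had the library as a block. CPM are of all UMIs of the summed cells, and fold changes come from the fits. The UMI counts of a sum set the counting precision of its CPM, while SEs of the fits also carry the spread between libraries. Intervals of shares are exact 95% ones (Clopper-Pearson).

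Alternatives were DESeq2 1.42.0, RLE scaling, every gene unfiltered, a minimum of 10 counts in each sum, the replicate number as a block, no library block, gate limits halved or doubled, at most 10% mitochondrial counts, barcodes of 2 lineages kept, no upper limits, equal weights of subsets, thinning to 5000 UMIs or none, and leaving out each library. The crossed replicate numbers and the contrast of the Tnnt2 subsets together were added after seeing the data. The members and lists were chosen with earlier results of these data known. Named genes were the 4 members, the 3 lists and, for each member, the 5 genes with the highest r. Positions are from GENCODE M21, where 99.6% of the deposited identifiers were found, and promoters from RefSeq on GRCm38.p6, where no Nfib entry was used.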

Additional observations from a re-analysis of the deposited data

How the results depend on the processing

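The number of genes called between Ho and Wt depended on the processing in every gate, while in the Cdh5, Hapln1 and Upk3b gates NFI genes were called only with Ho2 left out. In all Tnnt2 cells, where edgeR called 0, DESeq2 called 19, no filter 230, doubled gate limits 1, and leaving out a library 83 to 154. In the Cdh5 gate, with 0, DESeq2 called 28, no filter 282 and leaving out a library 0 to 271. In the Hapln1 gate, with 2, the numbers were 15 with DESeq2, 175 with no filter, 4 with gate limits halved and 4 with them doubled, 1 with barcodes of 2 lineages kept, and 1 to 284 without a library. In the Upk3b gate, with 6, they were 2 with DESeq2, 94 with no filter, 2 with barcodes of 2 lineages kept, 1 with no upper limits, and 30 to 122 without a library. The cause was not tested.

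Wt and Ho libraries share replicate numbers in the titles, but nothing says that a number marks a litter or day. Deviations of same-numbered libraries from their genotype means correlated over genes at -0.0906, -0.108, -0.0303 and 0.00722 in the Tnnt2, Cdh5, Hapln1 and Upk3b gates. With the replicate number as a block 0, 9, 8 and 17 genes were called, and no NFI gene in the last 3 gates. With crossed numbers 48, 22, 99 and 24 genes were called.

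Between gates, requiring 10 counts in every sum lowered the calls, with fewer genes tested. They came to 5897 in the Myl2 subset, 5479 in the Stard10 subset and 6089 in the Cdh5 gate. In the Hapln1 gate they came to 5475, in the Epcam gate to 4986 and in the Tnnt2 subsets together to 6857. The share of tested genes that was called rose, to 70.4%, 65.4% and 59.7% in the Myl2 subset and the Hapln1 and Upk3b gates. With no filter it fell, to 39.6%, 38% and 31.1%, against 64.8%, 62% and 53.4% in the main setting. DESeq2 called 4561, 1579, 983 and 421 genes between cycling and other cells of the Tnnt2, Cdh5, Hapln1 and Crabp1 gates and 1759 in the Nppa split, against 7111, 3686, 2679, 1545 and 3758 by edgeR. In the Crabp1 gate leaving out a library gave 455 to 1790.

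The fitted Nfia difference between Ho and Wt in all Tnnt2 cells, 0.64 on the log2 scale, took values from 0.53 to 0.80 with a library left out. It chose the family, so these values describe the contrast and support nothing. Results that turned direction were not called in the main setting. With a library left out, Nfia ranged from -0.13 to 0.074 in the Nppa split, -0.015 to 0.40 between genotypes in the Cdh5 gate and -0.070 to 0.41 in the Upk3b gate, where halved limits gave -0.078. Nfib ranged from -0.045 to 0.042 in cycling Hapln1 cells, -0.11 to 0.034 in Tnnt2 alone, where keeping barcodes of 2 lineages gave 0.036, and -0.029 to 0.33 between genotypes in the Upk3b gate. Nfic ranged from -0.18 to 0.069 in the Nppa split and -0.19 to 0.075 in the Shox2 subset, and doubled limits gave -0.13 in Tnnt2 alone. Nfix gave 0.036 in Tnnt2 alone with halved limits, against -0.45, and ranged from -0.40 to 0.28 between genotypes in the Upk3b gate.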
